A study of Mus musculus with 4 samples.

Results

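The genes described here build sterols in the cell and control that work. They were 28 genes chosen by symbol, of 32285 genes listed: 8 genes of the mevalonate and isoprenoid steps, 3 from squalene to lanosterol, 9 from lanosterol to cholesterol, 4 of the SREBP machinery, 1 sterol transport gene and 3 genes of fatty acid synthesis. All 28 were found in the gene list, and all 28 passed the filter on low counts in the sum over microglia. Their unique molecular identifiers (UMIs, tags that count each captured RNA molecule once) were read in 4 droplet libraries of single cells from mouse brain, 1 library per mouse.

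PRMT1FL mice (n = 2) carried floxed Prmt1 alleles on C57BL/6 and are named without the Cre driver described next; their label is wild type. PRMT1Cx3cr1-KO mice (n = 2) carried the same alleles with a Cx3cr1-CreERT driver, so that tamoxifen removes Prmt1, which encodes an arginine methyltransferase, from cells that express Cx3cr1. Mice of both genotypes received tamoxifen at an age of 5 to 6 weeks and then a diet with 0.2% cuprizone, a copper chelator that strips myelin, for 5 weeks. Cells were sorted by FACS for CD45 and CD11b. The driver allele was present in PRMT1Cx3cr1-KO mice only, so loss of Prmt1 and presence of the driver cannot be told apart.

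Cholesterol is made from acetyl-CoA through mevalonate, isoprenoids, squalene and lanosterol. When sterols in the endoplasmic reticulum are scarce, SCAP carries the SREBP precursors (encoded by Srebf1 and Srebf2) to the Golgi, where proteases release an active transcription factor that raises the genes of the pathway, and INSIG1 holds the complex back when sterols are plentiful. In demyelinated brain, microglia engulf myelin, which is rich in cholesterol, and must store, export or convert it.

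The libraries held 76943248 to 99559644 UMIs. After the limits of the study's methods on genes and mitochondrial UMIs, 8170 to 10902 cells per library were kept, and 7601 to 10145 of them lay in microglial clusters. All 8 microglial markers, among them P2ry12 and Tmem119, were present in each library's microglia, at a summed 16456 to 18681 CPM (counts per 1000000 UMIs). Pairs of libraries shared 31 to 46 cell barcodes. Haemoglobin UMIs stood apart by genotype, at 106 and 93.8 CPM in PRMT1FL microglia and 0.0615 and 0.0214 CPM in PRMT1Cx3cr1-KO microglia, and the 6 cycling markers were at 148 and 148 against 203 and 296 CPM. The 6 antigen presentation markers summed to 2846 and 3235 CPM in PRMT1FL microglia and to 1953 and 1095 CPM in PRMT1Cx3cr1-KO microglia. The 6 markers of border-associated macrophages summed to 20.02 and 20.53 against 37.64 and 100.6 CPM, and the 5 oxidative stress genes to 136 and 145 against 231 and 283 CPM. Border-macrophage-like cells (395), which were left out of the microglial sums, themselves had 3333 CPM of those 6 markers, Srebf2 at 44.0 to 58.7 CPM and Stard4 at 14.65 to 27.97 CPM per library (72 and 29 UMIs in all), higher than in microglia. The part of these differences in the results below was not tested. Prmt1 itself was at 93.5 and 86.3 CPM in PRMT1FL microglia and at 69.9 and 67.9 CPM in PRMT1Cx3cr1-KO microglia (log2 fold change -0.38, standard error 0.07, edgeR adjusted p = 0.088). Its UMIs are counted per gene and can come from recombined alleles, so they are only a partial check of the labels.

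Genotypes were compared on the UMIs of each library summed over its microglia, since cells of 1 mouse are not independent samples. Levels are given in CPM on TMM-scaled libraries, and a gene was called where its Benjamini-Hochberg adjusted p, over the 13863 genes tested, was at most 0.05 (edgeR, quasi-likelihood). Of the 28 genes, 1 was called higher in PRMT1Cx3cr1-KO microglia (0.267% of all genes tested were) and 0 were called lower (13 of the 13863 were). At an unadjusted p under 0.05, 11 of the 28 were higher in PRMT1Cx3cr1-KO microglia, against 9.81% of all genes tested, and 0 were lower (1337 of the 13863 were). The fitted log2 fold change was above 0 for 23 of the 28 (49.1% of all genes tested), with a median of 0.20 beside -0.005 over all genes tested. Both PRMT1Cx3cr1-KO libraries were above both PRMT1FL libraries for 22 of the 28 genes (26.0% of all genes tested) and below them for 2, Nsdhl and Scap (27.4% of all genes tested). With 2 mice per genotype, no exact permutation test of a single gene can give a two-sided p below 0.333.

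**Figure D1:**
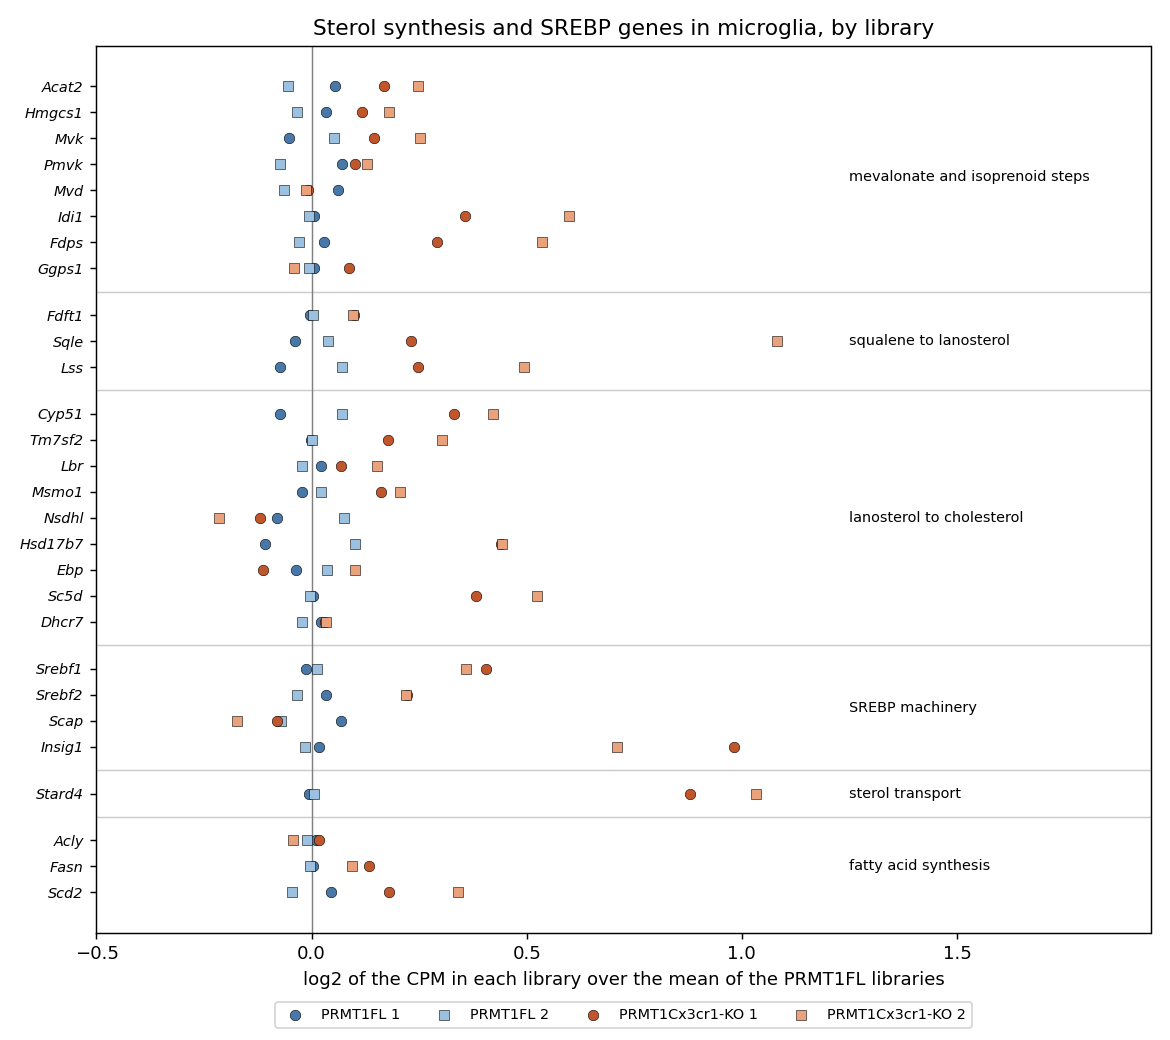
Level of each of the 28 genes in the microglia of each library, as the log2 of its CPM over the mean of both PRMT1FL libraries (x axis), with genes on the y axis grouped by role and 1 point per library. Insig1, Stard4 and Srebf1 lie to the right of the line at 0 in both PRMT1Cx3cr1-KO libraries, whereas Acly, Ebp and Mvd scatter around it.

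Within the SREBP machinery, Insig1 rose in PRMT1Cx3cr1-KO microglia. Insig1 encodes the endoplasmic reticulum protein that retains SCAP and is itself a target of SREBP. It was at 10.9 and 10.7 CPM in PRMT1FL microglia (941 and 760 UMIs) and at 21.4 and 17.7 CPM in PRMT1Cx3cr1-KO microglia (1750 and 1724 UMIs). Both PRMT1Cx3cr1-KO libraries thus lay well clear of both PRMT1FL libraries, and Insig1 was the gene of the 28 that was called (log2 fold change 0.85, standard error 0.10, edgeR adjusted p = 0.0491). That adjusted p lay at the threshold: it was 0.0791 without the cells of a cluster described below and 0.433 or 0.461 without PRMT1FL mouse 1 or PRMT1FL mouse 2, while the log2 fold change stayed between 0.72 and 0.98 under every setting run. Of the UMIs of Insig1 and Insig2, which encodes a related retention protein, Insig1 made up 26.3% and 25.9% in PRMT1FL microglia and 40.8% and 34.4% in PRMT1Cx3cr1-KO microglia.

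Srebf1, which encodes the factor that favours fatty acid genes, was at 18.0 and 18.3 CPM in PRMT1FL microglia and at 24.1 and 23.3 CPM in PRMT1Cx3cr1-KO microglia. The libraries of a genotype differed by less than 1 CPM and the genotypes did not overlap, but the gene was not called (log2 fold change 0.38, standard error 0.06, edgeR adjusted p = 0.0687). Srebf2, which encodes the factor that favours sterol genes, was at 14.3 and 13.6 CPM and at 16.3 and 16.2 CPM, in the same order (log2 fold change 0.22, edgeR adjusted p = 0.159). Scap, the escort, had the opposite order, with the genotypes only just apart, at 11.5 and 10.4 against 10.4 and 9.72 CPM (log2 fold change -0.13, edgeR adjusted p = 0.479). Summed over the 4 genes, the machinery reached 53.4 and 51.7 CPM in PRMT1FL microglia and 72.5 and 69.9 CPM in PRMT1Cx3cr1-KO microglia, unscaled by TMM.

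Insig1 (mm10, chromosome 5, 28071363 to 28078662, plus strand), Srebf2 (chromosome 15, 82147181 to 82205379, plus strand), Hmgcs1 (chromosome 13, 119690379 to 119708260, plus strand) and Sc5d (chromosome 9, 42251595 to 42264256, minus strand) are shown with the bases just upstream of their starts, because they cover the regulator with the call, a transcription factor gene, the entry enzyme and a late enzyme. The sequences are those of RefSeq on GRCm38.p6, at chr5:28071162-28071362, chr15:82147019-82147180, chr13:119690101-119690350 and chr9:42264301-42264550, written 5′ to 3′ on the strand of the gene. Capitals mark matches on either strand to TCACNCCA, a short form of the sterol response element that SREBP binds, or to CCAAT, the box bound by NF-Y.
Insig1: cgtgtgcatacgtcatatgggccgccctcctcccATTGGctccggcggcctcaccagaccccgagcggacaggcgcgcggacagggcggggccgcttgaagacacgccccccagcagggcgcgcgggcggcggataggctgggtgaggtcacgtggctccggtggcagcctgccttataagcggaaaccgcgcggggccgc
Srebf2: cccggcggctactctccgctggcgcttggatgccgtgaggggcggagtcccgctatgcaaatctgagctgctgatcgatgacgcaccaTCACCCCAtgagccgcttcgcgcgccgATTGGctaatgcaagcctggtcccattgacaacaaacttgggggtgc
Hmgcs1: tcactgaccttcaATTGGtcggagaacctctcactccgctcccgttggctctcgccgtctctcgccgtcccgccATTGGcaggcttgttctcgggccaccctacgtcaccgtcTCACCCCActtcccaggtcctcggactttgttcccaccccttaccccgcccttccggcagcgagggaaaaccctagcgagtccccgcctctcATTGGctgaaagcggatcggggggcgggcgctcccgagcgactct
Sc5d: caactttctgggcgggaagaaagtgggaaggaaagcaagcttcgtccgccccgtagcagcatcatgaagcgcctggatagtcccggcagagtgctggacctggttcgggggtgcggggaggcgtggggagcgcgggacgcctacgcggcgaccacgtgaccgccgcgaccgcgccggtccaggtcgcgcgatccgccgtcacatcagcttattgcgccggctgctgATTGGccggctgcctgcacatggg
The sequences of Insig1 and Srebf2 are shown for 201 and 162 bases, up to the GENCODE start, which lies ahead of the RefSeq start. The search used the whole RefSeq windows of 250 bases, of which 29 were matched, for 23 of the 28 genes. CCAAT was present in 21 of the 29 windows (72.4%, 20 genes), against 33.9% of 32851 windows of all genes, and Fasn, Idi1, Lss, Cyp51 and Dhcr7 were among the 20. TCACNCCA was present upstream of Hmgcs1, Msmo1 and Srebf2 (3 of 29 windows, 10.3%), against 3.67% of all windows, and the longer TCACNCCAC, which contains it, was present for Hmgcs1 alone (1.05% of all windows). Insig1, the gene with the call, had a CCAAT match and no TCACNCCA match in this window, which says nothing of sites elsewhere.

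Among the mevalonate and isoprenoid genes, Fdps and Idi1 had the largest log2 fold changes between genotypes. Fdps, which makes farnesyl diphosphate, was at 19.6 and 18.9 CPM in PRMT1FL microglia and at 23.6 and 27.9 CPM in PRMT1Cx3cr1-KO microglia (log2 fold change 0.42, standard error 0.09, edgeR adjusted p = 0.103). Idi1, the isopentenyl diphosphate isomerase, was at 3.16 and 3.14 against 4.03 and 4.77 CPM (log2 fold change 0.48, standard error 0.13, edgeR adjusted p = 0.132). Both genes were higher in both PRMT1Cx3cr1-KO libraries and neither was called. Hmgcs1, the synthase that commits acetyl units to the pathway, differed less, at 20.1 and 19.1 against 21.3 and 22.2 CPM (log2 fold change 0.15, edgeR adjusted p = 0.27). Acat2, the cytosolic thiolase, Mvk, the mevalonate kinase, and Pmvk, the phosphomevalonate kinase, had log2 fold changes of 0.21, 0.20 and 0.11, again with no overlap between genotypes. Mvd, the decarboxylase, and Ggps1, the geranylgeranyl diphosphate synthase, overlapped, with log2 fold changes of -0.01 and 0.02 whose sign changed with the settings.

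From squalene to lanosterol the counts were low. Sqle, the squalene epoxidase, had 47 and 41 UMIs in PRMT1FL microglia and 54 and 116 in PRMT1Cx3cr1-KO microglia, or 0.547, 0.577, 0.660 and 1.19 CPM. The log2 fold change of 0.73 (standard error 0.33, edgeR adjusted p = 0.297) became 0.23 without PRMT1Cx3cr1-KO mouse 2 and 0.03 when all kept cells were summed. Lss, the lanosterol synthase, was at 1.61 and 1.77 against 2.0 and 2.38 CPM (log2 fold change 0.38, edgeR adjusted p = 0.282). Fdft1, the squalene synthase, was at 4.93 and 4.96 against 5.29 and 5.29 CPM (log2 fold change 0.10, edgeR adjusted p = 0.594).

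Of the genes from lanosterol to cholesterol, Sc5d, Hsd17b7 and Cyp51 had the largest log2 fold changes. Sc5d, the sterol C5 desaturase, was at 9.22 and 9.17 CPM in PRMT1FL microglia and at 12 and 13.2 CPM in PRMT1Cx3cr1-KO microglia (log2 fold change 0.45, standard error 0.09, edgeR adjusted p = 0.0926). Cyp51, the lanosterol demethylase, was at 8.48 and 9.37 against 11.2 and 11.9 CPM (log2 fold change 0.38, standard error 0.09, edgeR adjusted p = 0.116). Msmo1, the methylsterol oxidase, was at 17.4 and 17.9 against 19.7 and 20.3 CPM (log2 fold change 0.18, edgeR adjusted p = 0.185). These 3 enzymes were higher in both PRMT1Cx3cr1-KO libraries, without a call.
Hsd17b7, a sterol ketone reductase, had a log2 fold change of 0.44 on 107 to 186 UMIs per library. Tm7sf2, a sterol reductase, was at 2.70 and 2.70 against 3.06 and 3.34 CPM (log2 fold change 0.24). Dhcr7, which makes cholesterol from its last precursor, was nearly level at 21.7 and 21.1 against 21.9 and 21.9 CPM, and Ebp, the sterol isomerase, overlapped at 71.2 and 74.8 against 67.5 and 78.4 CPM. Nsdhl, a dehydrogenase that removes methyl groups from sterols, was the enzyme that went lower without overlap, at 6.02 and 6.70 against 5.86 and 5.48 CPM (log2 fold change -0.17, edgeR adjusted p = 0.417).
Lbr, whose protein joins the lamin B receptor to a sterol reductase, was at 10.4 and 10.1 against 10.8 and 11.4 CPM (log2 fold change 0.11, edgeR adjusted p = 0.488). This order turned when each library was given the same mix of microglial states, at 11.7 and 11.0 CPM in PRMT1FL microglia and 10.6 and 10.3 CPM in PRMT1Cx3cr1-KO microglia.

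Stard4, a carrier that moves cholesterol between membranes, had the largest log2 fold change of the 28 in the fit over all 4 libraries. It was at 2.15 and 2.17 CPM in PRMT1FL microglia (185 and 154 UMIs) and at 3.97 and 4.42 CPM in PRMT1Cx3cr1-KO microglia (325 and 431 UMIs). The genotypes were well apart, yet the gene just missed the call (log2 fold change 0.96, standard error 0.12, edgeR adjusted p = 0.0542). Of the fatty acid genes, Scd2, a stearoyl-CoA desaturase, was at 128 and 121 against 141 and 158 CPM (log2 fold change 0.26, standard error 0.08, edgeR adjusted p = 0.157). Fasn, the fatty acid synthase, was at 9.96 and 9.90 against 10.9 and 10.6 CPM (log2 fold change 0.11), and Acly, which supplies cytosolic acetyl-CoA, overlapped at 54.9 and 54.1 against 55.1 and 52.9 CPM.

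DESeq2 on the same sums called 5 of the 28 genes higher in PRMT1Cx3cr1-KO microglia (2.91% of all genes tested): Insig1 (adjusted p = 1.2e-07), Stard4, Srebf1, Sc5d and Fdps. edgeR called the same 5 genes when PRMT1Cx3cr1-KO mouse 2 was left out (3.73% of all genes tested were called higher), and 9 genes when PRMT1Cx3cr1-KO mouse 1 was left out (9.08%), adding Cyp51, Idi1, Scd2 and Sqle to them. When PRMT1FL mouse 1 or 2 was left out, edgeR called 0 of the 28 (0.0282% and 0.0420% of all genes tested were called), with 7 and 6 of them at an unadjusted p under 0.05 (8.99% and 8.50% of all genes tested).

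The sums by role followed the single genes. The 8 mevalonate and isoprenoid genes summed to 104 and 99.4 CPM in PRMT1FL microglia and to 116 and 126 CPM in PRMT1Cx3cr1-KO microglia, and the 9 genes from lanosterol to cholesterol to 145 and 150 against 155 and 175 CPM. The 3 genes from squalene to lanosterol summed to 6.92 and 7.12 against 8.01 and 9.25 CPM. All 20 enzymes together gave 256 and 256 against 279 and 311 CPM, a log2 ratio of 0.20, and the 3 fatty acid genes 189 and 180 against 208 and 231 CPM, a log2 ratio of 0.25. The SREBP machinery had a log2 ratio of 0.44. In each of the 6 groups both PRMT1Cx3cr1-KO libraries were above both PRMT1FL libraries. These sums were unscaled by TMM. Without that scaling the median log2 ratio over all genes tested, which does not weigh genes by UMIs, was itself 0.07. Without PRMT1Cx3cr1-KO mouse 2 the log2 ratio fell to 0.07 for the 9 late genes, from 0.16, to 0.12 for all 20 enzymes and to 0.19, from 0.30, for the squalene to lanosterol genes. Genes with many UMIs weigh most in such sums. In the fatty acid group Scd2 was at 128 and 121 against 141 and 158 CPM (TMM-scaled), while Acly overlapped. Ebp, the late gene with the most UMIs, overlapped at 71.2 and 74.8 against 67.5 and 78.4 CPM. In the SREBP machinery Insig1 was at 10.9 and 10.7 against 21.4 and 17.7 CPM. These sums are described and were not tested.

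**Figure D2:**
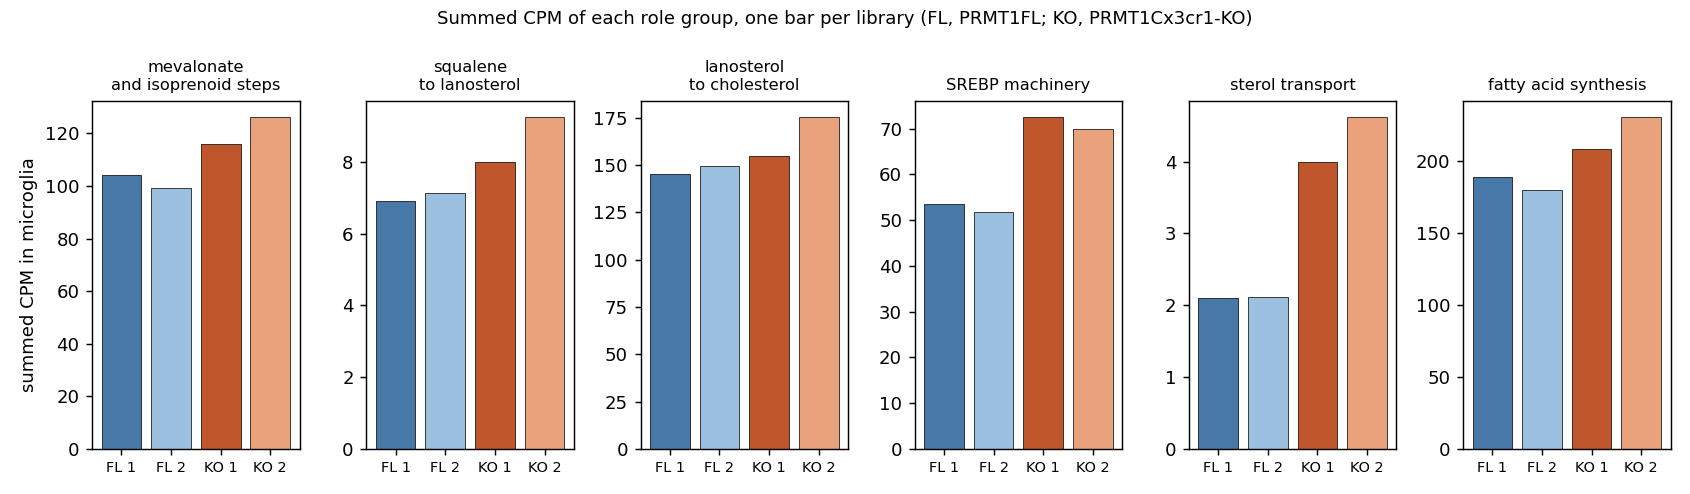
Summed CPM in microglia (y axis, from 0, unscaled by TMM) of the genes of each of the 6 role groups, with 1 bar per library. The bars of both PRMT1Cx3cr1-KO libraries are taller than those of both PRMT1FL libraries in each panel, with the widest relative gap for sterol transport, which is Stard4 alone.

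Other genes of lipid metabolism did not follow one direction. Of 51 such genes listed beside the 28, 49 were tested and 0 were called by edgeR (0.361% of all genes tested were), with 16 at an unadjusted p under 0.05 (19.5% of all genes tested) and 2 called by DESeq2 (5.01% of all genes tested), Abca1 and Scarb1. Of the 16 genes of cholesterol export, storage and LXR tested, 3 were higher and 5 lower at that unadjusted p (1360 and 1337 of the 13863 genes tested). Of the 16 other lipid synthesis genes tested, 5 were higher and 1 lower. Those with the smallest p were Scarb1, a lipoprotein receptor (log2 fold change -0.32, edgeR adjusted p = 0.105), Abca1, a cholesterol exporter (0.26, edgeR adjusted p = 0.106), Soat1, which esterifies cholesterol (-0.21, edgeR adjusted p = 0.146), Me1, the malic enzyme (1.78 on under 1 CPM in every library, edgeR adjusted p = 0.158), Acss2, which makes acetyl-CoA from acetate (0.45, edgeR adjusted p = 0.169), and Acaca, the acetyl-CoA carboxylase (-0.28, edgeR adjusted p = 0.183). Abca1 was at 197 and 197 CPM in PRMT1FL microglia and at 238 and 233 CPM in PRMT1Cx3cr1-KO microglia, whereas Scarb1 was at 52.3 and 51.1 against 43.0 and 39.8 CPM.

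Microglia were split into states by clustering that left out the 28 genes, the other lipid genes and genes that differed between genotypes. The 5 states with at least 100 cells in every library were Itgax/Cd74 microglia (11735 cells), Hcar2/Baiap2l2 microglia (10173), a cluster with no name of its own, cluster 2 (7806), a further unnamed cluster, cluster 3 (4500), and cycling-like microglia (2986), each called by its leading genes or markers. Among the kept cells, Itgax/Cd74 microglia were 36.7% and 38.6% in PRMT1FL libraries against 28.5% and 13.2% in PRMT1Cx3cr1-KO libraries, and cycling-like microglia 4.96% and 5.02% against 7.82% and 11.0%. Cluster 3 held unlike cells in the genotypes. Its Gdf15 was at 16.8 and 30.1 CPM in PRMT1FL cells and at 391 and 361 CPM in PRMT1Cx3cr1-KO cells, its Apoe at 3490 and 2462 against 24151 and 30449 CPM, and its Tmem119 at 1497 and 1608 against 736 and 617 CPM. Values inside cluster 3 therefore compare different cells, and the microglial sums were also taken without it. Then 21 of the 28 genes still had both PRMT1Cx3cr1-KO libraries above both PRMT1FL libraries (25.4% of all genes tested), with a median log2 fold change of 0.22. Other states also differed in leading genes. Itgax/Cd74 microglia had Cd74 at 1686 and 2144 against 721 and 258 CPM and Itgax at 253 and 265 against 145 and 85.5 CPM. Cluster 2 had Hbb-bs, its first leading gene, at 155 and 530 against 0 and 0 CPM. Its Cd74 was at 573 and 750 against 189 and 60.6 CPM. Ube2c, a cycling marker, was also among its leading genes. The 6 cycling markers summed to 343 CPM in cluster 2 and to 995 CPM in cycling-like microglia. How far values inside these states compare like cells was not tested.

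Stard4, Srebf1 and Idi1 kept the same order in all 5 states. How many of all genes tested did so was not counted. The states come from the same mice, so they are not independent repeats. Stard4 was at 1.68 and 1.62 against 2.15 and 2.27 CPM in Itgax/Cd74 microglia, at 1.89 and 1.94 against 4.02 and 3.88 CPM in Hcar2/Baiap2l2 microglia and at 4.63 and 6.2 against 8.36 and 8.97 CPM in cycling-like microglia. Its gap was clear in the deeply read states and rested on few UMIs in cluster 3, where PRMT1FL mouse 2 had none. Srebf1 was at 14.4 and 14.2 against 18.1 and 15.6 CPM in Itgax/Cd74 microglia, at 20.1 and 21.5 against 26.9 and 23.9 CPM in Hcar2/Baiap2l2 microglia, at 13.3 and 15.2 against 18.2 and 17.2 CPM in cluster 2 and at 26.8 and 24.4 against 30.8 and 29.7 CPM in cycling-like microglia. Idi1 was at 2.94 and 2.74 against 3.69 and 4.04 CPM in Hcar2/Baiap2l2 microglia and at 6.46 and 6.63 against 8.09 and 8.59 CPM in cycling-like microglia, and the genotypes nearly touched in cluster 3 (3.30 and 3.07 against 4.25 and 3.31 CPM).

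Insig1 was apart in 4 of the 5 states. It was at 10.9 and 11.6 against 24.4 and 19.2 CPM in Hcar2/Baiap2l2 microglia, at 3.70 and 4.83 against 8.22 and 9.22 CPM in cluster 2 and at 14.9 and 15.7 against 29.2 and 21.3 CPM in cycling-like microglia. In Itgax/Cd74 microglia, the largest state, the genotypes overlapped, at 11.3 and 9.70 against 16.6 and 10.9 CPM. The gap of Insig1 was thus not seen in both PRMT1Cx3cr1-KO mice in that state, and whether it differed between states was not tested. How many of all genes tested were apart in 4 of the 5 states was not counted either.

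**Figure D3:**
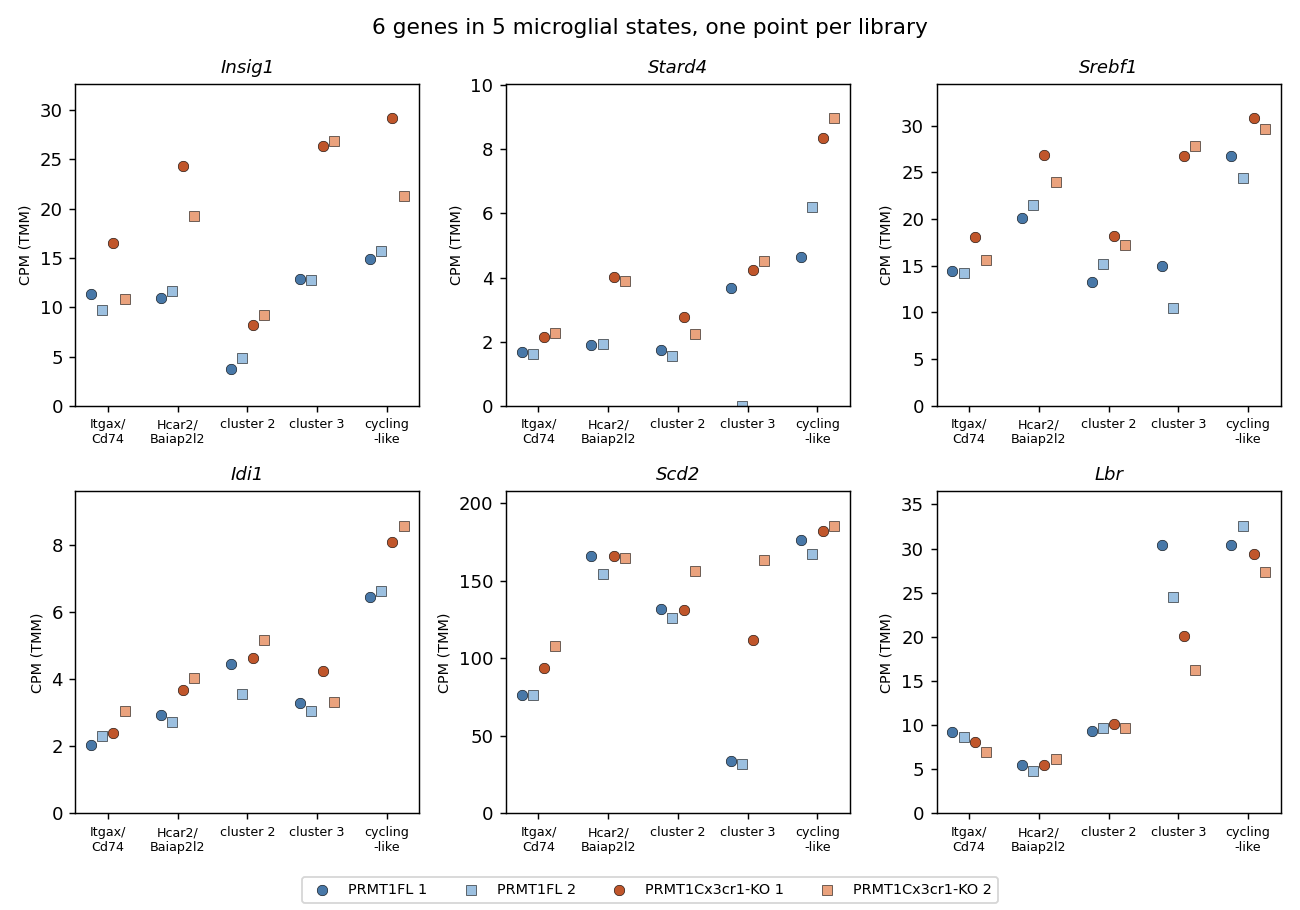
CPM (y axis, TMM-scaled within each state, from 0) of 6 genes in 5 microglial states (x axis), with 1 point per library. Points of both PRMT1Cx3cr1-KO libraries lie above those of PRMT1FL for Stard4, Srebf1 and Idi1 in each state, Insig1 overlaps in Itgax/Cd74 microglia, Scd2 parts most in cluster 3, and Lbr is highest in cluster 3 and cycling-like microglia.

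edgeR within states called 2 of 28 genes in Hcar2/Baiap2l2 microglia (1.07% of all genes tested there), both higher in PRMT1Cx3cr1-KO cells: Insig1 (log2 fold change 0.95, adjusted p = 0.0303) and Stard4 (1.04, adjusted p = 0.0381). Leaving out PRMT1FL mouse 1 or 2 ended both calls. edgeR then called 5 of 12861 and 0 of 12899 genes in all, with 5 and 6 of the 28 genes at an unadjusted p under 0.05 (9.85% and 10.4% of all genes tested there). In cluster 2 it called 2 of 26 genes (3.12%), Insig1 (1.06, adjusted p = 0.0187) and Fdps (0.45, adjusted p = 0.0347), where Fdps stood at 22.0 and 22.0 against 29.6 and 30.3 CPM, and DESeq2 called 0 there (1.65% of all genes tested), with 2 at an unadjusted p under 0.05 (7.32%, a share close to theirs). In cycling-like microglia 0 of 28 genes were called (0.414%), with 5 at an unadjusted p under 0.05 (11.0%) and 0 called by DESeq2 (0.635%). In Itgax/Cd74 microglia 0 of 27 genes were called (0.491%), with 4 at an unadjusted p under 0.05 (13.2%) and 1, Scd2, called by DESeq2 (1.01%). In cluster 3 it called 7 of 27 genes (28.4% of all genes tested there), a share close to that of all genes. The 6 higher in PRMT1Cx3cr1-KO cells were Scd2 (2.07), Srebf1 (1.08), Insig1 (1.06), Sc5d (0.91), Dhcr7 (0.71) and Srebf2 (0.65), and Lbr was lower (-0.62), all as log2 fold changes. Scd2 was at 33.7 and 32.0 CPM in PRMT1FL cells of that cluster and at 111 and 163 CPM in PRMT1Cx3cr1-KO cells.

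Counted over the genes tested, both PRMT1Cx3cr1-KO libraries were above both PRMT1FL libraries for 17 of 28 genes in Hcar2/Baiap2l2 microglia (25.3% of all genes tested there), 14 of 28 in cycling-like microglia (20.9%), 11 of 26 in cluster 2 (22.9%), 9 of 27 in Itgax/Cd74 microglia (22.5%) and 17 of 27 in cluster 3 (32.8%). With the states weighted to the same share in every library, the count over microglia was 21 of 28 (30.7% of all genes), the median log2 ratio was 0.20 against 0.28 unweighted, both unscaled by TMM, and the medians of all genes were 0.03 and 0.07.

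The states also differed from each other in sterol genes whatever the genotype. The 20 enzymes of sterol synthesis summed to 331, 333, 356 and 374 CPM in cycling-like microglia of PRMT1FL mice 1 and 2 and PRMT1Cx3cr1-KO mice 1 and 2, and were higher there than in the other microglia of each library (mean log2 ratio 0.40, SD 0.04, n = 4), beside a median of 0.10 over all genes. In Itgax/Cd74 microglia the sums were 248, 247, 242 and 255 CPM, lower than in the other microglia of each library. The mean log2 ratio was -0.18 (SD 0.13), beside a median of 0.05 over all genes. In Hcar2/Baiap2l2 microglia the sums were 246, 244, 272 and 302 CPM (-0.09, SD 0.02), beside a median of -0.08 over all genes. In cluster 2 they were 237, 245, 271 and 292 CPM (-0.09, SD 0.04), beside a median of -0.47 over all genes. In cluster 3 they were 349, 339, 327 and 342 CPM (0.32, SD 0.15, or 0.15 with a finer clustering), beside a median of 0.52 over all genes. In the smaller interferon-like state (666 cells) they were 225, 222, 252 and 218 CPM (-0.27, SD 0.17), beside a median of -0.10 over all genes. Each sum weighs genes by their UMIs, whereas each median counts every gene once. They are unlike measures, so a sum cannot be ranked against its median.

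Cycling-like microglia had 5 of 27 genes over 1.5-fold above the other microglia in all 4 libraries (8.22% of all genes with enough UMIs). Lbr was at 30.0, 32.2, 29.4 and 27.9 CPM (mean log2 ratio 1.91, SD 0.14), Stard4 at 4.56, 6.12, 8.35 and 9.18 CPM (1.47, SD 0.26) and Idi1 at 6.36, 6.55, 8.08 and 8.78 CPM (1.21, SD 0.08). Acat2 (1.06) and Fasn (0.74) were the other two, while Hmgcs1 and Dhcr7 were close to level. None of these 5 genes belonged to the steps from squalene to lanosterol or to the SREBP machinery. The other microglia included cluster 2, which also held cycling markers. In cluster 2 the mean log2 ratio was -0.16 for Lbr, -0.63 for Stard4 and -0.27 for Fasn. It was 0.28 for Idi1 and 0.25 for Acat2, beside a median of -0.47 over all genes there. The median cell of the cycling-like state had 13199 UMIs. Within this state both PRMT1Cx3cr1-KO libraries had less Lbr than both PRMT1FL libraries (30.5 and 32.6 against 29.5 and 27.3 CPM, TMM-scaled), whereas its sum over microglia had the opposite order. The share of cycling-like cells, given above, was larger in PRMT1Cx3cr1-KO mice.

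The other states held few such genes. Lbr was lower in Hcar2/Baiap2l2 microglia (1 of 28 genes, 4.16% of all genes, mean log2 ratio -1.43), and Scd2 was lower in Itgax/Cd74 microglia (1 of 26, 3.07%, -0.81) and in interferon-like microglia (1 of 11, 0.244%, -0.75). In cluster 2, Insig1 (-1.36) and Ggps1 (-0.85) were lower (2 of 25, 34.8% of all genes), and in cluster 3, Lss (1.28), Scap (0.90) and Ggps1 (0.89) were higher (3 of 21, 27.1%), shares below those of all genes there. Scd2 was at 76.6, 76.5, 92.4 and 109 CPM in Itgax/Cd74 microglia, so that its lowest value there lay with the PRMT1FL mice. Outside microglia, cells of other glial types (455) had Scd2 at 653 to 1073 CPM and a summed 604 to 861 CPM of the 20 enzymes. These cells held 5043 CPM of the 6 astrocyte markers and 4523 CPM of the 3 choroid plexus markers. In the microglial sums the astrocyte markers were at 59.0, 63.7, 56.8 and 42.4 CPM, the choroid plexus markers at 2.87, 3.42, 3.01 and 1.36 CPM and the oligodendrocyte markers at 72.2, 66.9, 69.8 and 65.8 CPM. None of the 3 lists was higher in both PRMT1Cx3cr1-KO libraries than in both PRMT1FL libraries.

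**Figure D4:**
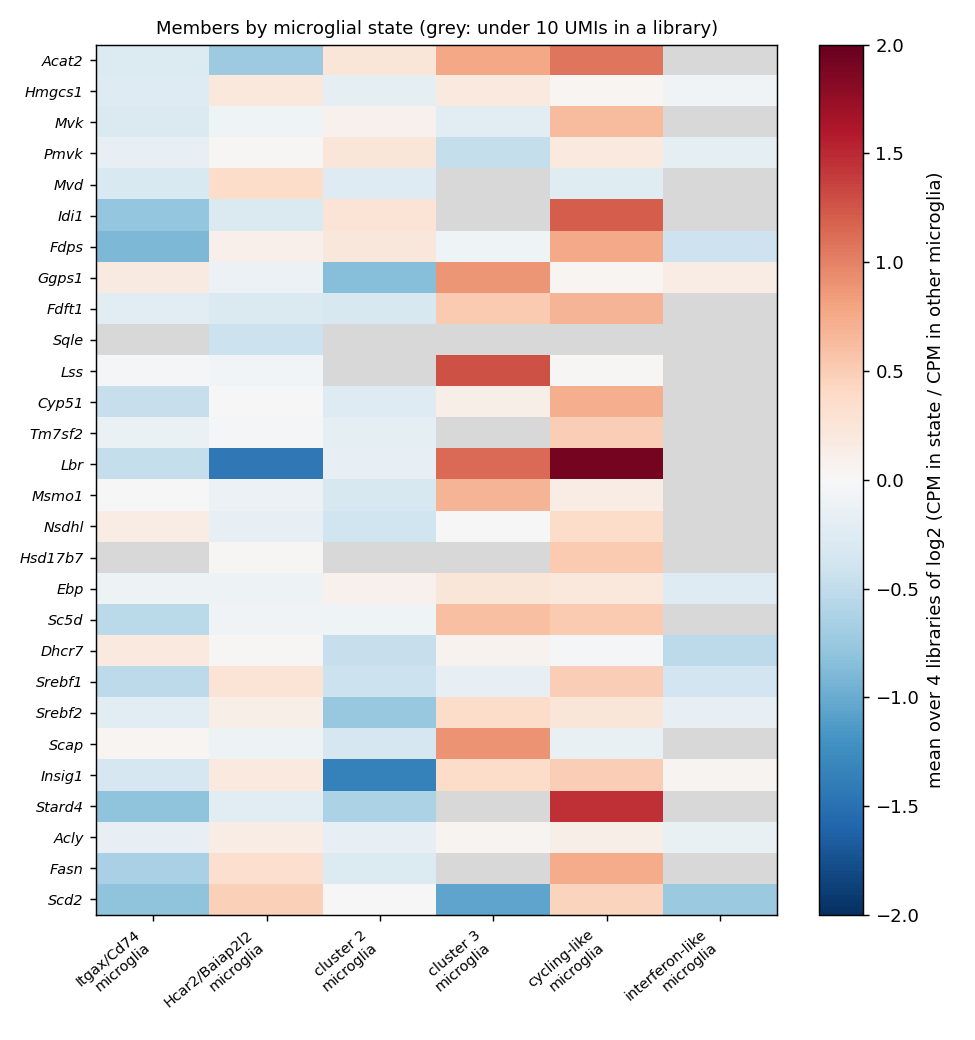
Mean over 4 libraries of the log2 ratio of each gene's CPM in a state to its CPM in all other microglia (colour, blue below 0, red above), for the 28 genes (rows) and 6 microglial states (columns), with grey where a library had under 10 UMIs. Cycling-like microglia show Lbr, Stard4 and Idi1 in red, and Hcar2/Baiap2l2 microglia show Lbr in blue.

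Whether the genes lay in the same cells was read at equal depth, with each microglial cell thinned to 2000 UMIs (387 to 786 shallower cells left out per library). Cells with a Hmgcs1 UMI were set against cells without, and 6 of the other genes had 10 or more UMIs on both sides in every library. Fdps was higher in cells with Hmgcs1 in all 4 libraries, by log2 ratios of 0.92, 0.44, 0.58 and 0.30, and Dhcr7 by 0.55, 0.48, 0.32 and 0.43. These were 2 of 6 genes, against 10.5% of all genes. Scd2 (mean 0.22), Pmvk (0.03), Acly (-0.00) and Ebp (-0.15) were not higher in all 4, and the median over the 6 was 0.13 beside 0.02 over all genes. With a mean of 2.09 to 2.86 UMIs of all 20 sterol enzymes per cell before thinning, these ratios rest on few molecules and are given as a description.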

How the data were processed

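Single cells of 4 mice, 1 library each, were examined. The deposited values were raw counts of UMIs per gene and cell barcode, which the authors made with Cell Ranger 3.1.0 on mm10 without normalization; Seurat 3.2.0 and Scanpy 1.5.2 are also named in the submitters' processing notes. Read depth per UMI was not given in the sources used here. The study's limits of 200 to 6000 genes and no more than 10% of UMIs from mitochondria were applied to each cell. Counts were scaled per cell and log transformed, 2000 variable genes were reduced to 20 principal components, and a graph of 20 neighbours was clustered with leidenalg 0.10.2. The 28 genes, the other lipid genes, mitochondrial genes and 1197 genes that differed over 2-fold between genotypes at an unadjusted p under 0.05 were left out of the clustering. No doublets were removed, as the study describes no such step. UMIs were summed per library over microglia or over a state, and genes kept by filterByExpr were tested with edgeR 4.0.16 (quasi-likelihood, TMM, Benjamini-Hochberg) in R 4.3.3, with DESeq2 1.42.0 as an alternative. An SE is the log2 fold change over the root of the test's F. Both steps were checked on simulated data.

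The 28 genes and all lists were chosen with earlier results of these data known. All 28 are named, and of the other pathway genes those called or, under 6 called, the 6 of smallest p. States carry names only from markers or leading genes. State ratios needed 10 UMIs per library on both sides and are descriptions. Samples are single mice per the labels; p-values measure the spread between them. UMIs are read near the 3′ end, so levels of different genes are not on one scale. The sums over genes and the share of Insig1 beside Insig2 weigh genes by their UMIs. They are read only between libraries, genotypes or states. Exons of 5 of the 28 genes (Fdps, Tm7sf2, Lbr, Srebf1 and Scd2) overlap another gene on the same strand, and their counts could be split. Gene positions are those of GENCODE on mm10. Alternatives were another normalization, tool, filter, cell selection, clustering, depth, state mix and replicate block, and leaving out each mouse.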

Additional observations from a re-analysis of the deposited data

Results flagged for a closer look

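In 4 of the 28 genes both PRMT1Cx3cr1-KO libraries lay above both PRMT1FL libraries in one microglial state and below them in another, against 28.6% of the 12250 genes tested in 2 or more states. The difference between the states was not tested. Hsd17b7 was higher in cycling-like microglia (log2 fold change 0.79) and lower in Itgax/Cd74 microglia (-0.24), a difference of 1.02. Lbr was higher in Hcar2/Baiap2l2 microglia (0.18) and lower in cluster 3 (-0.62), a difference of 0.80. Acat2 was higher in Hcar2/Baiap2l2 microglia (0.27) and lower in cluster 3 (-0.35), a difference of 0.62. Fasn was higher in Itgax/Cd74 microglia (0.21) and lower in cluster 2 (-0.18), a difference of 0.40. Of these 8 values only that of Lbr in cluster 3 was called by edgeR, and cluster 3 held unlike cells in the genotypes.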

How the results depend on the processing

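The count of the 28 genes called between genotypes, 1 by edgeR, was 5 with DESeq2 (5.01% of all genes tested were called), 8 with no filter on low counts (7.34%), 3 when all kept cells were summed (5.08%), 2 with the replicate block (2.40%) and 0 without cluster 3 (0.182%; edgeR, 11 at an unadjusted p under 0.05, against 18.4% of all genes), and it ranged from 0 to 9 when each mouse was left out. Without PRMT1FL mouse 1 or 2 it was 0 (0.0282% and 0.0420% of all genes), and 9 without PRMT1Cx3cr1-KO mouse 1 (18.2%). A lone mouse was then assumed to vary like the other genotype. The count of other lipid genes called, 0, became 2 with DESeq2, 7 with no filter and 1 with all cells, and ranged from 0 to 11, the latter without PRMT1Cx3cr1-KO mouse 1. Of the 49 to 51 tested, these are to be read against the same shares of all genes. The median log2 fold change of the 28 genes ranged from 0.16 to 0.24 with a mouse left out, and from 0.18 to 0.22 elsewhere. The labels link mice of different genotypes by number only. Deviations of mouse 1 from its genotype's mean correlated at 0.21 between the genotypes over 13863 genes. The block raised the calls over all genes from 50 to 333. Neutrophil markers were at 5.89 and 220 CPM in PRMT1FL microglia of mice 1 and 2, and at 0.824 and 77.5 CPM in PRMT1Cx3cr1-KO microglia. Whether same-numbered mice shared a batch was not tested. Within states, the count in cycling-like microglia, 0, became 2 with no filter (3.07% of all genes there) and 1 with the replicate block (1.78%). In Hcar2/Baiap2l2 microglia, 2 became 6 with no filter (7.26%) and 1 with the replicate block (1.24%). In Itgax/Cd74 microglia, 0 became 1 with DESeq2 (1.01%) and 2 with no filter (3.59%). In cluster 2, 2 became 0 with DESeq2 (1.65%) and 1 with raised clustering resolution (2.71%), and in cluster 3, 7 became 3 with DESeq2 (15.1%). With a mouse left out these counts ranged from 0 to 1, 0 to 5, 0 to 1, 0 to 2 and 4 to 8, in that order. The number of all genes called in each state also changed with the mouse left out, so these ranges do not single out the sterol genes. Raised clustering resolution moved the log2 ratio of the sterol enzymes to -0.14 in cluster 2 and 0.15 in cluster 3. With the 28 genes and other lipid genes kept in the clustering, 69.9% of microglia kept their state and no cluster matched Hcar2/Baiap2l2 microglia best, so that state, with 2 of the calls, had no value there. Leaving out the barcodes of highest doublet score (6.54% to 9.14% per library) moved it to 0.44 in cycling-like microglia, and thinning moved it to -0.54 in Ms4a7/Clec12a phagocytes (464 cells, 6 of them in PRMT1FL mouse 2). Summing all cells, or giving each library the same state mix, moved the genotype log2 ratio to 0.16 and 0.16 for squalene to lanosterol, 0.38 and 0.35 for the SREBP machinery and 0.88 and 0.85 for Stard4. With a mouse left out it ranged from 0.19 to 0.40 for squalene to lanosterol, 0.073 to 0.25 for lanosterol to cholesterol, 0.92 to 1.13 for Stard4 and 0.12 to 0.28 for all 20 enzymes. These ratios were unscaled by TMM. The cause of these shifts was not tested. The doublet score, used because scrublet marked almost no barcodes, and the sums without cluster 3 were added after seeing the data. Co-detection had no value at 1000 UMIs per cell, where too few genes reached 10 UMIs. Signs of Acly, Ebp, Ggps1 and Mvd, none of them called, changed between settings.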

Other observations

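Of the other lipid genes outside the 28, edgeR called 16 of 44 tested between the genotypes in cluster 3, against 28.4% of all genes tested there. Of these 16, 12 were among the 15 genes of cholesterol export, storage and LXR tested, 11 of them higher in PRMT1Cx3cr1-KO cells and 1 lower, 3 among 12 other lipid synthesis genes and 1 among 11 users of isoprenoids. Apoe, the lipoprotein of lipid export, had a log2 fold change of 3.35, Plin2, which coats lipid droplets, 2.32, Lipa, the lysosomal lipase that frees cholesterol from its esters, 2.29, and the exporter Abca1 1.08. Cyp27a1, which makes an oxysterol, was lower (-1.16). The cells of this cluster were unlike in the genotypes, as its Gdf15, Apoe and Tmem119 show, so these values do not compare one state.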
